A study of Brachypodium distachyon with 45 samples.

Results

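Of the 32837 annotated loci measured in leaves of the grass Brachypodium distachyon, 52 were detected in the genotype KOZ1 and were at or near 0 in both ABR4 and ABR8. They are called the KOZ1-only loci here. A locus was included when its lowest FPKM in KOZ1 was at least 2 and its highest FPKM in ABR4 and ABR8 was at most 0.2, over the T0 control, the T1 control, the T2 control and the T2 drought groups. FPKM is a count of sequenced fragments corrected for transcript length and library size. The loci were thus chosen by their FPKM in these 4 groups of each genotype, and the genotype difference there is a description with no test. The T1 drought group of each genotype was not used in the choice. The same limits gave 32 loci for ABR4 and 95 loci for ABR8.

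ABR8, ABR4 and KOZ1 are inbred lines with tolerant, intermediate and susceptible drought phenotypes, respectively. Plants were watered for 32 days and then either watered (control) or deprived of water (drought), and leaves were taken at day 0 (T0, control only), day 4 (T1) and day 8 (T2). The 45 libraries, 1 from each of 45 plants, formed 15 groups of 3, and the table used here holds 1 pooled value per locus and group with the authors' 95% confidence limits, which stand for the error. The treatment recorded with the samples goes against the sample titles for 15 libraries (12 of ABR8 at T1 and T2, and 3 of KOZ1 at T0), and the titles, which match the study's design, were followed. The labelled leaf tissue was not checked against marker genes.

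Inbred lines of one plant species differ in the genes they carry and in how those genes are regulated. RNA reads are counted where they map to the reference genome, which for Brachypodium is that of the accession Bd21, so a gene can be counted in a line only if its transcript resembles the Bd21 sequence. RNA levels alone do not tell a gene that a line lacks from one that it does not transcribe or whose reads do not map. In leaf samples, fewer cells of a type and less RNA per cell also cannot be told apart.

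The T1 drought groups of ABR4 and ABR8 stood apart from their labels at genotype-specific loci. All 32 ABR4-only loci were above 0.2 FPKM in the ABR8 T1 drought group, where their summed FPKM was 33.6% of that in the ABR4 T1 control. All 95 ABR8-only loci were above 0.2 FPKM in the ABR4 T1 drought group, at 32.4% of the ABR8 T1 control. The cause was not tested. The KOZ1-only loci summed to 0.146% of their KOZ1 T1 control level in the ABR4 T1 drought group and to 0.0779% in the ABR8 T1 drought group, inside the range of 0.0707 to 0.285% of the other 8 ABR groups. In the KOZ1 T1 drought group, the ABR4-only loci summed to 0.145% and the ABR8-only loci to 0.117% of their owner's T1 control. The summed FPKM of all loci was between 624700 and 759455 in 14 groups and 479128 in the KOZ1 T2 drought group.

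The KOZ1-only loci were mostly expressed at low levels, with a few abundant ones. The median of a locus over the 4 KOZ1 groups of the rule ranged from 2.09 to 87.5 FPKM, with 5.07 FPKM in the middle. It was above 10 FPKM for 9 loci, which is 17.3%, against 56.5% of the 12818 annotated loci with at least 2 FPKM in the same KOZ1 groups. Over the 52 loci, the median FPKM in KOZ1 was 5.23 at T0, 5.69 and 5.79 at T1 (control and drought), and 5.63 and 5.17 at T2. In all 5 KOZ1 groups, 44 loci had a lower limit above the upper limit of each of the 10 ABR groups. This is a description, since 4 of these KOZ1 groups and 8 of these ABR groups were used in the choice. An ABR value listed at 0 also has an upper limit of 0, and the share over all loci was not computed. The lower limit was 0 in at least 1 KOZ1 group for 6 loci, so that their KOZ1 level is poorly known.

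**Figure D1:**
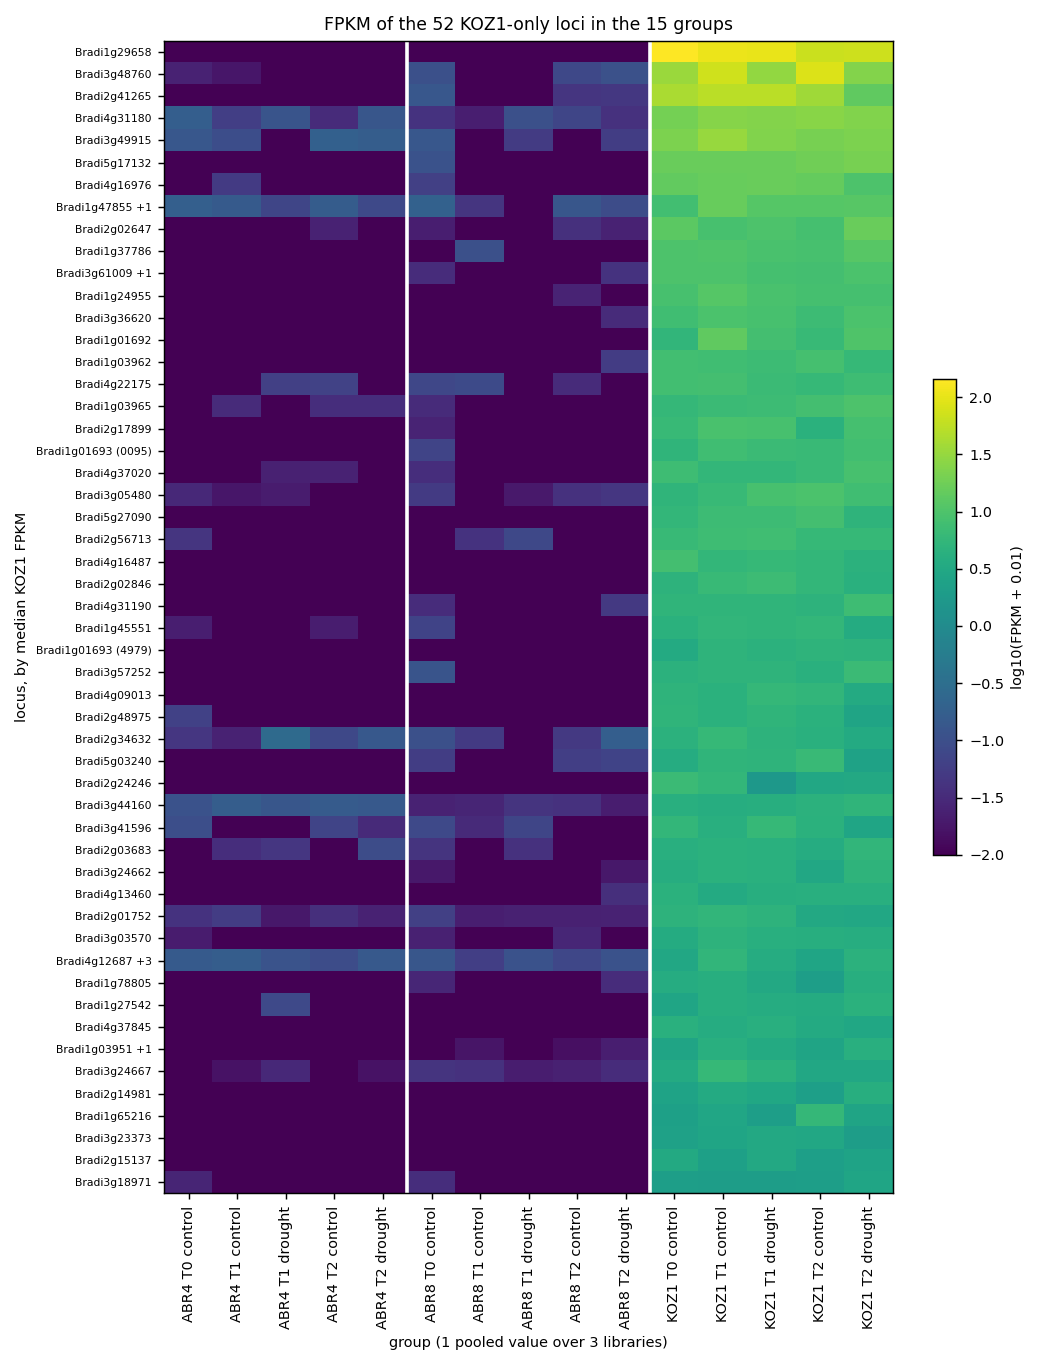
FPKM of the 52 KOZ1-only loci (rows, ordered by median KOZ1 FPKM) in the 15 groups (columns), as log10(FPKM + 0.01), with 1 pooled value over 3 libraries per cell. The 5 KOZ1 columns are above those of ABR4 and ABR8 in each row, and the 10 ABR columns are mostly listed at 0.

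In ABR4 and ABR8 most values were listed at 0. Of the 52 loci, 13 were at 0 in all 10 ABR groups, 29 in all 5 ABR4 groups and 15 in all 5 ABR8 groups. The ABR8 T0 control had the most loci above 0, with 30 (57.7%), against 10 to 21 in the other 4 ABR8 groups and 11 to 15 in the ABR4 groups. Its highest value was 0.187 FPKM, and the summed level of the 52 loci there was 0.285% of the KOZ1 T1 control. Of all annotated loci, 73.0 to 76.9% were above 0 in an ABR group.

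The limits of the rule cut through a continuum. The lowest KOZ1 value was 2.07 FPKM for Bradi3g23373, 2.09 for Bradi3g18971 and 2.14 for Bradi1g78805, while Bradi3g18618 (1.97), Bradi3g41360 (1.95) and Bradi1g58335 (1.94) fell just outside. The highest ABR value inside was 0.187 FPKM for the locus of Bradi1g47855 and Bradi1g47857, 0.181 for Bradi3g49915 and 0.165 for Bradi4g31180. Just outside were Bradi4g08210 (0.232), Bradi1g29642 (0.260) and Bradi1g72727 (0.262).

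The most abundant of the 52 was also the least certain. Bradi1g29658 (LOC104585142, protein-coding) was listed at 143 FPKM at T0, 107 and 106 FPKM in the T1 control and drought groups, and 67.2 and 68.2 FPKM at T2, and at 0 in all 10 ABR groups. Its lower limit was 0 in all 5 KOZ1 groups and its upper limit at T0 was 661 FPKM. It lies in a region of 27657 bp (chromosome 1, 25209181 to 25236837, v3.0 assembly) to which the table assigns 7 loci with the same coordinates. One of them, which carries the identifier Bradi1g29658 and 3 others, was at 15.4 to 27.8 FPKM in ABR4, 0.772 to 10.9 FPKM in ABR8 and 10.1 to 14.9 FPKM in KOZ1. The gene name is therefore not specific to KOZ1, and the assignment of reads within this region is uncertain.

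Next by median level were a pair of protein-coding genes with narrower limits. Bradi3g48760 (LOC100828115; chromosome 3, 49907279 to 49911345) was at 34.4 FPKM at T0 (limits 22.5 to 46.3), at 71.7 and 86.1 FPKM in the T1 and T2 controls and at 30.5 and 23.8 FPKM in the T1 and T2 drought groups. Its highest ABR value was 0.0957 FPKM, in ABR8 T2 drought. Both drought values were under all 3 watered values, although their limits overlapped those of T0. The T1 drought limits (20.7 to 40.2) also overlapped those of the T1 control (32.2 to 111). Bradi2g41265 (LOC104582794; chromosome 2, 41285559 to 41289024) was at 42.9 FPKM at T0, 54.1 and 53.0 FPKM at T1, 36.8 FPKM in the T2 control and 14.0 FPKM under T2 drought (limits 7.96 to 20.0). It was listed at 0 in all 5 ABR4 groups. Only the T2 drought value lay below the lower limits of the other 4 KOZ1 groups.

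A further set of abundant loci varied less over the 5 KOZ1 groups. Bradi4g31180 (LOC100828337, protein-coding; chromosome 4, 36865932 to 36872486) ranged from 19.4 to 26.3 FPKM, a ratio of 1.35 between its highest and lowest group. Bradi3g49915 (LOC106866531, protein-coding; chromosome 3, 50900154 to 50903174) was at 21.7, 33.3, 23.0, 20.1 and 22.0 FPKM in the order T0, T1 control, T1 drought, T2 control and T2 drought. In the same order, Bradi5g17132 (LOC112269211, protein-coding; chromosome 5, 20512150 to 20516441) was at 16.2, 15.8, 16.3, 17.8 and 20.4 FPKM. The 95% limits of each of these loci overlapped between any pair of KOZ1 groups.

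Of the remaining loci among the 10 most abundant, a pair matched long non-coding RNA (lncRNA) genes, which are transcripts without a long reading frame. Bradi4g16976 (LOC104584534; chromosome 4, 17865188 to 17867201) was at 14.2, 15.7, 16.2, 14.7 and 9.98 FPKM in the order given above. The locus of Bradi1g47855 and Bradi1g47857 (LOC104581633; chromosome 1, 46687555 to 46690926) was at 7.86, 15.3, 11.7, 11.6 and 11.7 FPKM. Bradi2g02647 (LOC100823462, protein-coding; chromosome 2, 1808056 to 1812842) was at 12.6, 8.82, 9.87, 8.51 and 16.1 FPKM, highest under T2 drought. Bradi1g37786 (chromosome 1, 33851762 to 33855439), matched to no RefSeq gene, was at 9.73, 10.2, 9.25 and 8.81 FPKM in the first 4 of these groups and highest under T2 drought (limits 5.62 to 18.3). The limits of the 5 KOZ1 groups overlapped for each of these loci.

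**Figure D2:**
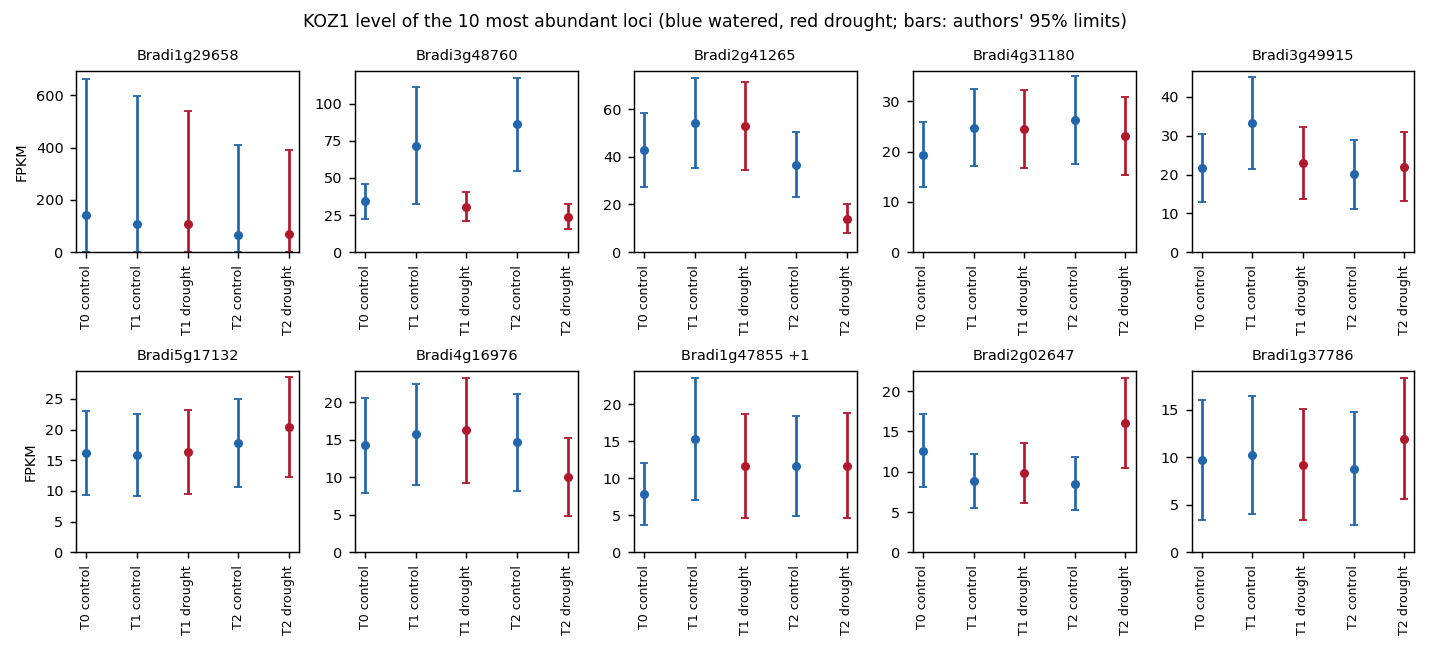
FPKM of the 10 KOZ1-only loci with the highest median level in the 5 KOZ1 groups, each panel with its own axis from 0. Points are the pooled values, bars the authors' 95% limits, blue the watered and red the drought groups; Bradi3g48760 and Bradi2g41265 are lowest under T2 drought, at 23.8 and 14.0 FPKM, and the limits of Bradi1g29658 reach down to 0.

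By value the 5 KOZ1 groups differed little for most of the 52 loci. In 4 of these groups each locus had to reach 2 FPKM by the choice, which limits the ratio of a low locus in advance. The ratio of the highest to the lowest of the 5 values had a median of 1.62 and was under 2 for 43 loci. It was 3 or more for Bradi3g48760 (3.61), Bradi2g41265 (3.86) and Bradi2g24246 (4.14), whose limits included 0 in all 5 groups. Over the 4 groups of the rule, the median ratio was 1.60 both for the KOZ1-only loci and for the 12818 annotated loci with at least 2 FPKM. The latter were more abundant (median 11.9 against 5.07 FPKM), so no stability is read from the equal ratios. The highest value fell in the T1 control for 16 loci and under T2 drought for 15. The lowest fell in the T2 control for 18 and under T2 drought for 18.

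The T1 drought groups gave values that the choice of the loci had not used. In KOZ1, 51 of the 52 loci were at 2 FPKM or more there, and the exception was Bradi2g24246 at 1.64 FPKM (limits 0 to 5.10). In ABR4, 40 loci were listed at 0 and 1 was above 0.2 FPKM. That locus, Bradi2g34632 (LOC100837981, lncRNA; chromosome 2, 34456658 to 34460222), was at 0.262 FPKM in ABR4 (limits 0 to 1.10), 0 in ABR8 and 4.87 FPKM in KOZ1. In ABR8, 42 loci were at 0 and the highest value was 0.0998 FPKM. Each of the 52 loci was higher in KOZ1 than in either ABR genotype.

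The difference was tested with a z-test built on the authors' limits, with Benjamini-Hochberg adjustment over all loci and a change of at least 2-fold. Against ABR4, 24 of the 52 loci passed and all 24 were higher in KOZ1, where 0.664% of the 27117 loci tested were higher and 0.627% lower in KOZ1. Against ABR8, 21 passed, all higher in KOZ1, where the shares over 27416 loci were 0.463% higher and 0.624% lower. Both comparisons use the same KOZ1 values, and the ABR4 and ABR8 groups here are those that stood apart from their labels above. A value listed at 0 has limits of 0, which makes its test too firm. This held for 22 of the 24 loci that passed against ABR4 and 19 of the 21 against ABR8. The lowest adjusted p was that of Bradi4g31180 against ABR8 (24.5 against 0.0947 FPKM, log2 difference 8.01 ± 1.15 SE), and against ABR4 that of Bradi3g48760 (30.5 FPKM against a value listed at 0).

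The loci that did not pass were expressed at lower levels, had wider limits and were less often listed at 0 in the other genotype. Their median KOZ1 value was 4.78 FPKM against ABR4, with a standard error of 0.323 of the value, while those that passed had 7.11 FPKM and 0.224. In ABR4, 18 of the 28 that did not pass were at 0, and in ABR8 23 of 31. A value of 0 changes the form of the test, so passing did not rest on level and limits alone. With limits that do not overlap in place of the adjusted p, 45 loci were higher in KOZ1 than ABR4 and 45 higher than ABR8, where 1.83% and 1.45% of all loci were. The 7 loci with overlapping limits included Bradi1g29658 (105.8 FPKM, limits 0 to 539) and Bradi2g24246.

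The drought response of the KOZ1-only loci in KOZ1 was tested at each time point. At T1, 0 of the 52 loci passed the adjusted p of the z-test, where 0.155% of all loci rose and 0.303% fell. The T1 control was used in the choice of the loci, while the T1 drought group was not. This can tilt the changes toward lower values, so nothing is read from the counts. At the unadjusted p 1.1% of all loci were lower and 0.997% higher, and 1 of the 52 was lower, which was Bradi3g48760. It was at 30.5 FPKM under drought and 71.7 FPKM in the control (log2 change -1.24 ± 0.47 SE). The median log2 change of the 52 loci was -0.05, against -0.003 over all loci. By value 33 loci were lower and 19 higher. These counts move with the scaling of the groups, since 24 were lower and 28 higher with a common median over loci and 42 lower and 10 higher with equal sums, and no direction of the group is given.

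At T2, 2 of the 52 loci fell and 0 rose, where 4.57% of all 26286 loci tested fell and 3.77% rose. The share that fell, 3.85%, was near the background. Both T2 groups of KOZ1 were used in the choice of the loci and were at least 2 FPKM by it. This limits how far a low locus could fall or rise, so nothing is read from the counts. Bradi3g48760 fell from 86.1 to 23.8 FPKM (log2 change -1.85 ± 0.37 SE). Bradi2g41265 fell from 36.8 to 14.0 FPKM (log2 change -1.39 ± 0.42 SE), whereas at T1 its log2 change was -0.03 ± 0.36 SE.

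All loci summed to 750890 FPKM in the KOZ1 T2 control and to 479128 FPKM under T2 drought. When each group was scaled to an equal sum, the log2 change was -1.21 for Bradi3g48760, which still passed, and -0.74 for Bradi2g41265, which did not. Then 2 loci also passed as higher under drought, Bradi2g02647 (log2 change 1.57 ± 0.38 SE) and Bradi3g24662 (1.35 ± 0.45 SE), so that 1 locus fell and 2 rose. Over all loci 2.07% fell and 13.4% rose with equal sums. The median log2 change of the 52 loci was 0.03 as deposited and 0.67 with equal sums, while that of all loci was 0.06 and 0.71. By their values, 29 loci were higher and 23 lower as deposited, and 44 were higher and 8 lower with equal sums, so that the direction at T2 depends on the scaling.

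Of the loci that did not pass at T2, Bradi2g02647 had the highest log2 change, 0.92 ± 0.38 SE (8.51 to 16.1 FPKM). Bradi5g03240, chosen after its values were seen, had -1.38 ± 0.77 SE (6.50 to 2.50 FPKM). For the other 50 loci a lack of change was not shown. The 95% interval of the log2 change had a median width to each side of 1.13 at T1 and 1.18 at T2, and it lay within a 2-fold change for 10 loci at T1 and for 5 at T2. The T2 response minus the T1 response passed the adjusted p for 0 of the 52 loci, where 4.78% of 23035 loci passed. All groups in this difference except T1 drought were used in the choice of the loci, so nothing is read from the count. At the unadjusted p 1 passed, Bradi2g41265, with a difference of -1.36 ± 0.55 SE, and the share over all loci at that p was not computed.

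**Figure D3:**
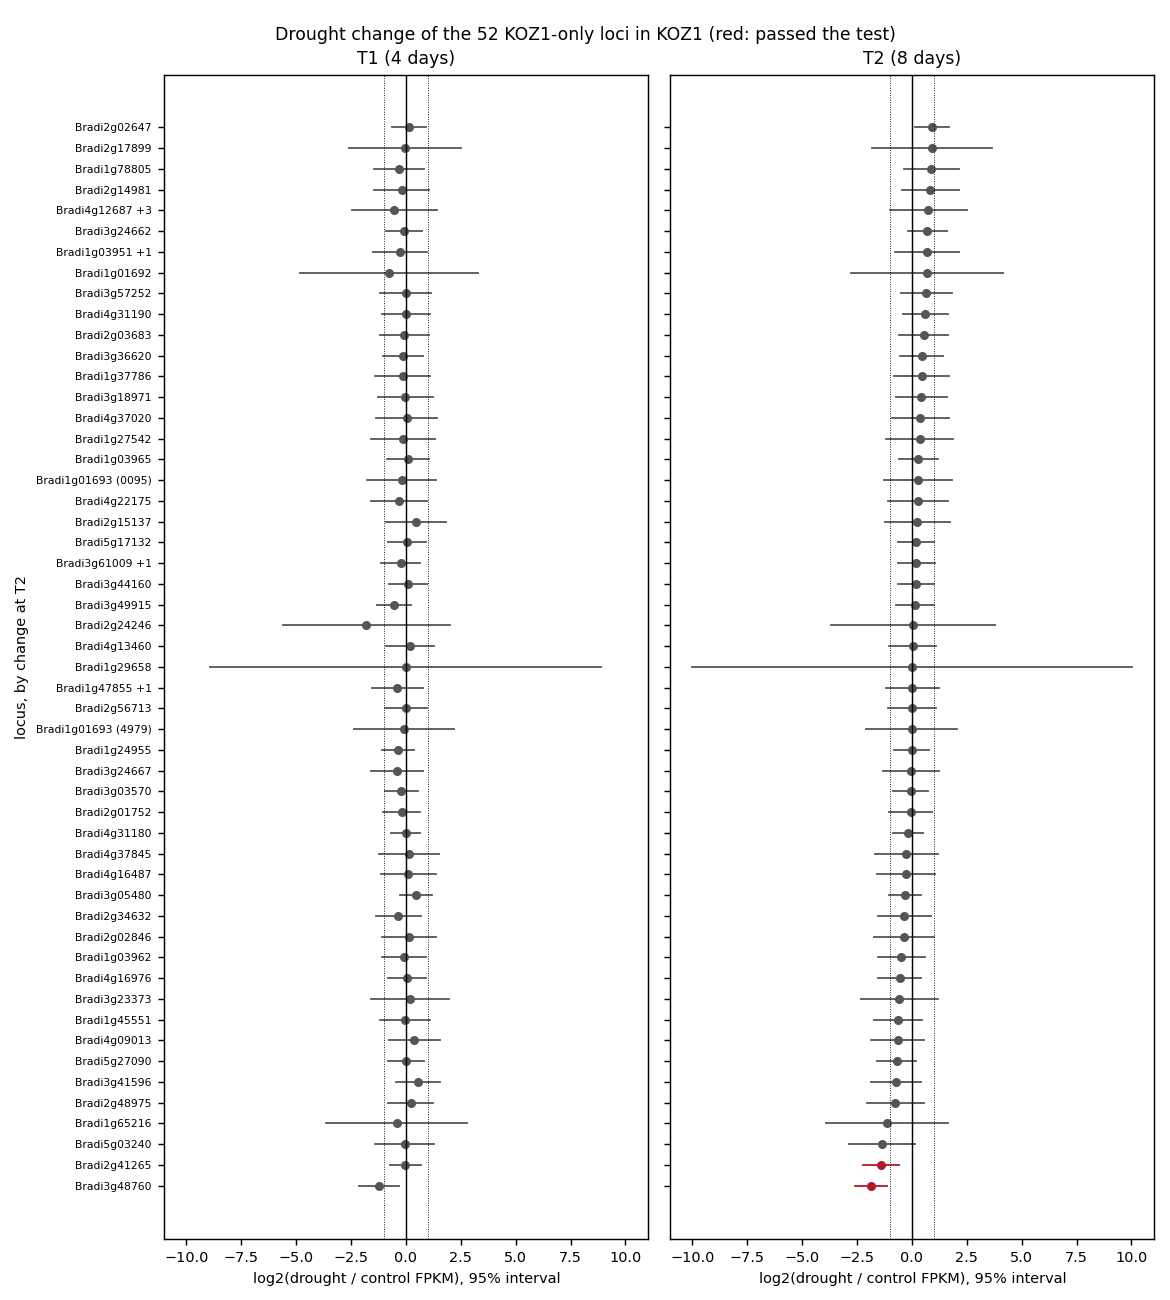
Log2 change under drought in KOZ1 at T1 (left) and T2 (right) of the 52 KOZ1-only loci, ordered by the change at T2. Points are the changes, bars their 95% intervals, dotted lines a 2-fold change, and red marks the loci that passed the test, which are Bradi3g48760 (-1.85) and Bradi2g41265 (-1.39) at T2.

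The watered KOZ1 groups were also compared over time. All 3 of them were used in the choice of the loci, which had to reach 2 FPKM in each, so the values are a description and nothing is read from the counts. From T0 to the T1 control 0 of the 52 loci passed in the z-test, where 0.36% of all loci rose and 0.854% fell. At the unadjusted p 1.17% of all loci rose and 3.42% fell, and 1 of the 52 rose. That locus was Bradi3g48760, at 34.4 and then 71.7 FPKM (log2 change 1.06 ± 0.48 SE). The median log2 change was 0.22, with 36 loci higher and 16 lower by value, against 0.02 over all loci. From the T1 to the T2 control 0 passed at either p, where 0.0385% of all loci rose and 0.054% fell at the adjusted p, and the median was -0.15.

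The KOZ1-only loci mostly carried identifiers of later gene models. In the Brachypodium annotation most older gene models have identifiers that end in 0, and models added between them end in another digit. Such an added identifier came first in 41 of the 52 loci (78.8%), against 24.4% of the 12818 annotated loci with at least 2 FPKM in KOZ1. Among loci with a median of at most 10 FPKM the shares were 79.1% of 43 and 31.9% of 5577. The share was 78.1% of the ABR4-only and 71.6% of the ABR8-only loci, so that it was not particular to KOZ1.

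By position, 31 of the 52 loci matched a RefSeq gene (59.6%), against 88.0% of the expressed loci. A protein-coding gene was matched by 21 loci (40.4% against 84.4%) and a lncRNA gene by 8 (15.4% against 2.75%). Bradi3g03570, at 3.62 to 4.78 FPKM in KOZ1, matched a pseudogene, and Bradi4g37845, at 2.94 to 4.40 FPKM, a transcribed pseudogene. No RefSeq gene overlapped 11 loci (21.2% against 1.28%). The ABR4-only and ABR8-only loci had protein-coding matches for 40.6% and 41.1%. The symbols carry no product names, so no function is given for the 52 loci. Their median length was 3602.5 bp, against 4960.5 bp for the expressed loci.

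**Figure D4:**
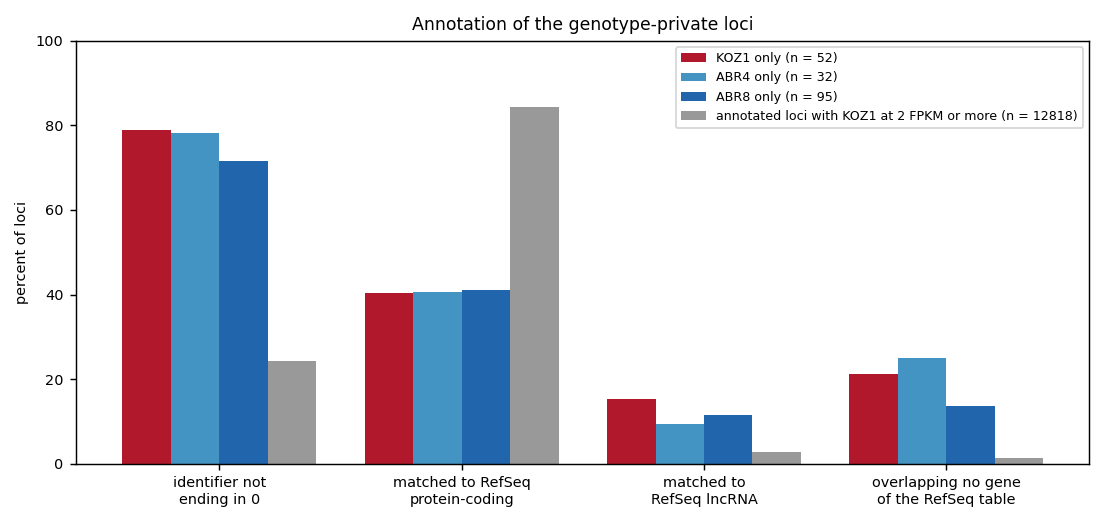
Share of loci with 4 annotation features, in percent, for the 52 KOZ1-only, 32 ABR4-only and 95 ABR8-only loci and for the 12818 annotated loci with at least 2 FPKM in KOZ1. All 3 genotype-specific sets have more identifiers that do not end in 0 (71.6 to 78.8% against 24.4%) and fewer protein-coding matches (40.4 to 41.1% against 84.4%) than the expressed loci.

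Some of the 52 loci shared their place or their name with others. The same coordinates were listed for another locus in 13 of them (25%, against 22.4% of the expressed loci), and the table gives no strand, so that reads of such loci may be split between them. The 52 loci carry 57 different identifiers, and 9 loci have an identifier that occurs at another locus too. For 4 of them the other locus was above 0.2 FPKM in ABR4 or ABR8. Besides Bradi1g29658 these were Bradi1g45551 (other locus at 1.71 to 3.46 FPKM in ABR8), Bradi4g37020 (0.352 to 1.22 FPKM in ABR8) and Bradi4g37845 (0.106 to 0.618 FPKM in ABR8). For the other 48 loci no such locus was found.

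The 52 loci were spread over all 5 chromosomes. Chromosomes 1 to 5 held 14, 12, 13, 10 and 3 of them, and the shares of all annotated loci there were 29.0, 22.2, 22.1, 16.9 and 9.71%. Distances between consecutive KOZ1-only loci that do not overlap had a median of 4339524 bp. Of all 47 consecutive pairs, 7 were at most 100000 bp apart, which includes pairs listed with the same coordinates. There were 3 runs of directly adjacent KOZ1-only loci, with 7 members.

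The first run was a single region. Bradi1g01692 and a pair of loci that both carry Bradi1g01693 had the same coordinates (chromosome 1, 1116544 to 1119375) and matched the same RefSeq gene, LOC106866245. In KOZ1 they were at 5.44 to 13.8, 5.28 to 7.90 and 3.50 to 5.05 FPKM, and the lower limit was 0 in 5, 0 and 4 of the 5 KOZ1 groups. They may stand for 1 source of reads. The second run held Bradi1g03962 (chromosome 1, 2693877 to 2695800), at 6.16 to 8.57 FPKM, and Bradi1g03965 (LOC100820984; 2697417 to 2700289), at 5.88 to 10.1 FPKM, within 6413 bp. The locus of Bradi1g03951 and Bradi1g03953, at 2.63 to 4.24 FPKM, ended 20306 bp before them. Under T2 drought, Bradi1g03962 was at its lowest KOZ1 value and Bradi1g03965 at its highest, and neither change passed the test.

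The last run held Bradi4g31180 and Bradi4g31190 (LOC100842586, protein-coding; chromosome 4, 36875718 to 36879720), within 13789 bp. Bradi4g31190 was at 5.17 FPKM at T0, 5.14 FPKM in both T1 groups, 4.85 FPKM in the T2 control and 7.44 FPKM under T2 drought, below its neighbour in each group. In ABR4 it was listed at 0 in all 5 groups. Bradi3g24662 and Bradi3g24667 lay 1065 bp apart on chromosome 3 and were at 3.13 to 5.09 and 3.05 to 6.07 FPKM. This pair was chosen after its values were seen.

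Few of the genes beside the KOZ1-only loci passed the test between genotypes, although the shares higher in KOZ1 were above those of all loci. The nearest annotated locus outside the set on each side gave 95 different neighbours, at 17 to 54018 bp with a median of 2245.5 bp. Of these, 76 could be tested at T0. Against ABR4, 5 neighbours were higher in KOZ1 (6.58%, where 1.37% of all loci were) and 0 lower (0.714% of all loci), and 0 were lower at the unadjusted p (2.35% of all loci). Against ABR8, 2 were higher (2.63%, where 0.983% of all loci were) and 1 lower (0.987% of all loci). Both comparisons use the same KOZ1 group. Of the 48 neighbours with at least 1 FPKM in KOZ1 at T0, 30 (62.5%) reached 1 FPKM in both ABR genotypes, against 88.3% of 16829 other annotated loci. At 5 FPKM or more in KOZ1 the shares were 88.5% of 26 neighbours and 97.8% of 10633 loci.

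A pair of neighbours was higher in KOZ1 than in both genotypes. Bradi1g27529 (chromosome 1, 22755838 to 22757950), 51031 bp from Bradi1g27542, was at 22.5 FPKM at T0 in KOZ1, 2.75 FPKM in ABR4 and 0.446 FPKM in ABR8 (log2 differences 3.03 ± 0.60 and 5.66 ± 1.08 SE). Over the 5 KOZ1 groups it was at 22.5 to 29.5 FPKM. Bradi3g48766 (chromosome 3, 49944765 to 49949483), 33419 bp from Bradi3g48760, was at 9.79 FPKM in KOZ1, 0 in ABR4 and 1.10 FPKM in ABR8 (log2 difference from ABR8 3.16 ± 0.67 SE). Both were thus detected in at least 1 other genotype.

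The neighbours of Bradi5g17132 differed between genotypes in another way. Bradi5g17126 and Bradi5g17140 were singled out after their values were seen. Bradi5g17126 (LOC106866910), 796 bp away, was at 118 FPKM at T0 in KOZ1 and 176 FPKM in ABR8 but 0.308 FPKM in ABR4 (log2 difference between KOZ1 and ABR4 8.59). In the ABR4 T1 drought group, which stood apart above, it was at 85.0 FPKM. Bradi5g17140 (LOC100838063), 2707 bp away on the other side, was at 23.8 FPKM in KOZ1, 5.86 FPKM in ABR4 and 111 FPKM in ABR8, higher than in ABR4 (log2 difference 2.02) and lower than in ABR8 (-2.23), both past the test. Bradi5g17132 itself was at 16.2 FPKM in KOZ1, 0 in ABR4 and 0.102 FPKM in ABR8. By their T0 values both neighbours were thus highest in ABR8 and lowest in ABR4, while Bradi5g17132 was highest in KOZ1. For Bradi5g17126 the difference between KOZ1 and ABR8 did not pass the test (log2 difference -0.58).

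The remaining neighbour higher than in ABR4 was Bradi1g29622, 17 bp from Bradi1g29658, at 3.33 FPKM in KOZ1, 0.700 FPKM in ABR4 and 3.46 FPKM in ABR8. Both neighbours reached 1 FPKM in all 3 genotypes for 9 of the 52 loci, and exactly 1 did for 13. For 30 loci neither did. At T0 in KOZ1, 24.2% of the neighbours were listed at 0, against 23.5% of all annotated loci, and 13 neighbours were at 0 in all 15 groups.

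**Figure D5:**
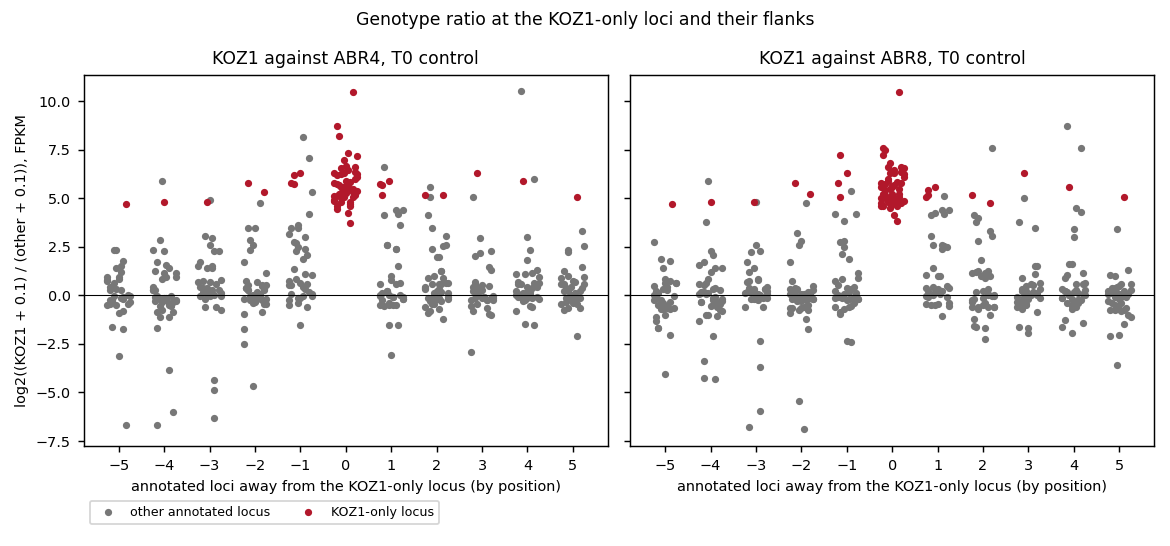
Log2 ratio of KOZ1 to ABR4 (left) and to ABR8 (right) at T0, as log2((KOZ1 + 0.1) / (other + 0.1)) in FPKM, for each KOZ1-only locus (position 0) and the 5 annotated loci on each side, for loci above 0 in at least 1 of the 2 groups. Red marks KOZ1-only loci, whose high ratios follow from the choice of the loci, and grey marks other annotated loci, most of which lie near 0.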

How the data were processed

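Leaf RNA of 45 plants was sequenced by the authors with TruSeq libraries. Per the paper's methods and the submitters' processing notes, reads were trimmed with Trim Galore 0.4.1 (quality 28), mapped with TopHat2 2.1.1 and Bowtie2 2.2.9 to the v3.0 assembly with annotation v3.1, and quantified with Cufflinks 2.2.1 and Cuffdiff. The deposited table gives 1 FPKM value for each locus in a group, which the authors' tool pooled from 3 libraries, with 95% limits in FPKM and a status word (both of the unit type other), which was OK in each cell. Read depth per library was not used, so the limits set the precision.

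The standard error was the distance from FPKM to its upper limit divided by 1.96. Each test divided the difference in ln(FPKM) by its standard error and read the ratio as a normal deviate (z-test); where a value was 0, the plain FPKM difference was used. Values listed at 0 have limits of 0, which makes those tests too firm. P-values were adjusted by Benjamini-Hochberg within a comparison, and loci were called at an adjusted p of 0.05 and 2-fold. These approximate tests, whose p-values are not printed, rest on the authors' model of the spread between the plants of a group. The loci and lists were chosen with earlier results of these data known.

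Genes were named by a rule: the 10 highest medians in KOZ1, loci called under drought, loci above 0.2 FPKM in an ABR T1 drought group, adjacent runs, the 3 loci on each side of each limit, and neighbours called against both genotypes. Loci were matched to RefSeq (Brachypodium_distachyon_v3.0, the same build) at a reciprocal overlap of 50%. Of 131 identifier and symbol pairs in the paper's supplement, 125 matched a gene by position and 119 gave the same symbol. Starts were moved to count from 1. The planned product classes and leaf markers need product names and were not used here. Sequences were not used here. Python 3.11.15, numpy 2.4.6, scipy 1.17.1, pandas 2.3.3 and matplotlib 3.10.9 were used. Alternatives were other limits of the rule, unadjusted p, non-overlapping limits, the z-test of the plain difference, 4-fold, pseudocounts, a filter on low values and 2 scalings.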

Additional observations from a re-analysis of the deposited data

How the results depend on the processing

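With a KOZ1 minimum of 1 or 5 FPKM in place of 2, the rule gave 88 or 22 loci. With an ABR maximum of 0.1 or 0.5 FPKM it gave 43 or 71, with the T1 drought groups included 50, and without loci that share their coordinates, which was added once the values had been seen, 39. At the unadjusted p, 1 locus passed for drought at T1, 1 from T0 to the T1 control and 1 for the difference of the drought responses. Under T1 drought 37 loci were higher in KOZ1 than in ABR4 and 41 than in ABR8, where 2.85% and 2.24% of all loci were. Of the neighbours, 9 were higher than in ABR4, where 4.46% of all loci were. Against ABR8, 9 neighbours were higher and 1 lower, where the shares over all loci were 3.21% and 3.7%. By limits that do not overlap, 45 loci passed against ABR4 and 45 against ABR8, where 1.83% and 1.45% of all loci were higher. So did 10 neighbours against ABR4 at T0, 9 higher and 1 lower in KOZ1, and 12 against ABR8, 10 higher and 2 lower. The share over all loci was not computed for these neighbour counts, so nothing is read from them. At 4-fold, 0 loci passed for drought at T2. The other counts recomputed under these alternatives stayed within 1.5 times, although with equal sums the 2 falls at T2 became 1 fall and 2 rises. No paired analysis was possible because the table holds 1 pooled value per group, with no replicate numbers, and for the same reason no replicate could be left out. The levels of ABR4-only and ABR8-only loci in each other's T1 drought group could not be taken out of the pooled values. Low FPKM limits the precision: at the median width of the intervals, changes of under 2-fold were not detectable for most loci.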
